A study of Mus musculus with 8 samples.

Results

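The PDGF genes, 4 ligands (Pdgfa, Pdgfb, Pdgfc and Pdgfd), 2 receptors (Pdgfra and Pdgfrb) and the receptor-like gene Pdgfrl, were followed in mouse cardiac fibroblasts through 21 days of osteogenic differentiation medium. They were taken by symbol, and all 7 were found among the 24015 genes of the expression table. The mice were wild type, of strain C57BL/6J and 8 weeks old, and the labels name the cells cardiac fibroblasts. RNA was sequenced on day 0, from cells not yet given the medium, and on days 7, 14 and 21 of it, with 2 libraries at each of the 4 times and 8 in all. What the medium contained is not given in the sources used here, and every later library had the medium, so days in culture and the medium cannot be told apart. The labels name no culture or animal for any library, and p-values therefore rest on the spread between 2 libraries, which may be technical.

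PDGFs are secreted growth factors that drive growth, migration and survival of mesenchymal cells. Their ligands form dimers, which bring receptor chains together and switch on the tyrosine kinase inside each chain. PDGF-A and PDGF-C act mainly through the alpha receptor, PDGF-D mainly through the beta receptor, and PDGF-B through both. In the heart the alpha receptor is a standard surface marker of fibroblasts and the beta receptor of mural cells, while PDGF-B is best known as the endothelial and platelet signal that recruits mural cells.

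The sequences before the transcription starts are shown for 2 genes that were higher at days 7 and 21, Pdgfra and Pdgfc, and for Pdgfa, which was lower at day 21. Each is the 250 bases upstream of a RefSeq start in GRCm38.p6, 5′ to 3′ on the gene's strand: chr5:75152001-75152250 (+) for Pdgfra, chr3:81036166-81036415 (+) for Pdgfc and chr5:138994945-138995194 (-) for the farther upstream of the Pdgfa starts. Capitals mark matches to a searched motif.
Pdgfra: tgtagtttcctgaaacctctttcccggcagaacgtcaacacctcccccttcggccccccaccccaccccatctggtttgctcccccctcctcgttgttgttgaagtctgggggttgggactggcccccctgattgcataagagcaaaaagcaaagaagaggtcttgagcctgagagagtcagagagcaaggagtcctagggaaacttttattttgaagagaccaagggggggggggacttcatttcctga
Pdgfc: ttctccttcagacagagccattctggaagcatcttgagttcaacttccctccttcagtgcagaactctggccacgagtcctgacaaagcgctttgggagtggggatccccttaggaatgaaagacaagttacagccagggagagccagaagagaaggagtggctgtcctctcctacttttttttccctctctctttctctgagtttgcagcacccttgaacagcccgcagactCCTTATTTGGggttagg
Pdgfa: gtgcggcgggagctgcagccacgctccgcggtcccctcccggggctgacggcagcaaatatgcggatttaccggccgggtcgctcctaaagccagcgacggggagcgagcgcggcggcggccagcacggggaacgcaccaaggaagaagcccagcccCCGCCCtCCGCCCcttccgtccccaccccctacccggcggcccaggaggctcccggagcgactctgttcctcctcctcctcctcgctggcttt
On both strands 6 motifs were searched: the TATA box (TATAAA, in 12.4% of 32851 RefSeq promoter windows of this length), the GC box (GGGCGG, 32.7%), AP-1 (TGANTCA, 6.75%), Egr (GCGNGGGCG, 4.70%), the glucocorticoid response element (0.00913%) and the serum response element core, known as the CArG box (1.47%). The capitals in Pdgfc are a CArG box that begins 17 bases before the start. Those in Pdgfa are 2 GC boxes on the opposite strand, 93 and 86 bases before the start, which do not overlap. No searched letters were in the Pdgfra window. The Egr and serum response element motifs were added after these sequences had been read. Their shares of all windows therefore cannot tell how unexpected the match in Pdgfc is. These matches are descriptions of the letters only, and windows for 4 of the 7 genes were used.

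The libraries held 13399313 to 21883498 reads assigned to genes, and levels are given as normalized counts, meaning reads divided by the size factor of their library. Differences between times are log2 differences with their standard error from limma, fitted over 13527 genes that passed a filter on low values. All 7 PDGF genes passed it, with at least 10 normalized counts in 2 or more libraries. A gene is called higher or lower where its Benjamini-Hochberg adjusted p over all tested genes is below 0.05. Replicates differed most at days 14 and 21, where chi-square over its degrees of freedom was 20.03 and 19.6, against 5.11 and 3.603 at days 0 and 7. All 12 fibroblast markers had reads in every library, and against day 0 they had 4 called higher and 5 lower at day 7. At day 14 it was 5 and 7 of them, and by day 21 it was 5 and 5. These are 75.0%, 100% and 83.3% of the list, beside 55.4%, 70.7% and 59.4% of all tested genes called at these times. Col1a1, the main chain of type I collagen, averaged 249947 normalized counts at day 0 and 22418 at day 14, and the proteoglycan gene Dcn 9270 and 53004. Macrophage markers summed to 1169 and 1245 normalized counts at day 0, 10196 to 12679 at day 7, 21657 to 40495 at day 14 and 21613 to 21851 at day 21. Adipocyte markers summed to 122 to 162 at day 0 and 2449 to 7509 later, with Adipoq at 0 on day 0 and 20.5 on day 14 on average. Most of each adipocyte sum was Fabp4, which averaged 95.6 on day 0 and 2055, 6319 and 2193 on days 7, 14 and 21. Cardiomyocyte markers summed to 1143 to 1217 at day 0 and 5875 to 28818 later, nearly all of it Tnnt2, while the defining gene Myh6 had 0 reads in every library. The part of these cells in the PDGF values was not tested. In such bulk samples fewer cells of a type and less RNA per cell cannot be told apart.

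**Figure D1:**
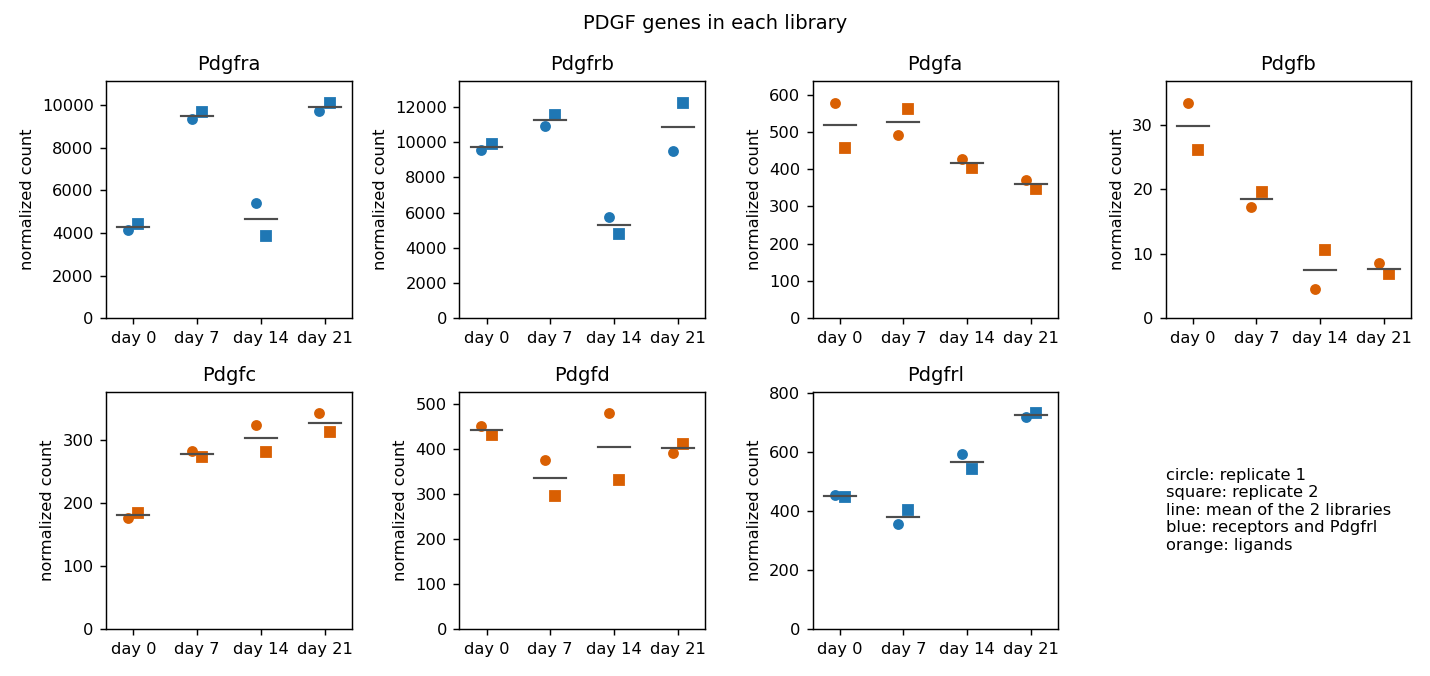
Normalized counts (y axis, from 0) of the 7 PDGF genes on each day (x axis), with 1 point per library and a line at the mean of 2. Pdgfra sits between 3864 and 5416 on days 0 and 14 and between 9352 and 10112 on days 7 and 21, Pdgfrb is lowest on day 14, and Pdgfb goes from 33.4 and 26.1 on day 0 to 8.54 and 6.81 on day 21.

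In normalized counts the alpha receptor more than doubled in the first week, was near its starting level at day 14 and was high again at day 21. Pdgfra, the receptor chain that binds PDGF-A and PDGF-C, stood at 4123 and 4430 normalized counts on day 0, 9352 and 9659 on day 7, 5416 and 3864 on day 14, and 9709 and 10112 on day 21. Both day 7 and both day 21 libraries lay above every library of days 0 and 14, and the day 14 libraries bracketed those of day 0. Pdgfra rose 2.22-fold by day 7 (log2 difference 1.15 ± 0.13, adjusted p = 1.36e-05) and was 2.32-fold above day 0 at day 21 (log2 1.21 ± 0.13, adjusted p = 7.03e-06). Between these it fell 2.08-fold from day 7 to day 14 (log2 -1.05 ± 0.13, adjusted p = 8.87e-05) and rose 2.17-fold from day 14 to day 21 (log2 1.11 ± 0.13, adjusted p = 0.000232). Day 14 against day 0 was not called, at log2 0.10 with a 95% interval of -0.19 to 0.39, and neither was day 21 against day 7, at 0.06 with an interval of -0.23 to 0.35. The day 14 level depended on the processing. With a trend of transcript length and GC content removed, Pdgfra at day 14 was called higher than day 0 (log2 0.72, adjusted p = 2.29e-05, limma).

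The beta receptor was lowest at day 14, and its early difference was not called. Pdgfrb, the chain that binds PDGF-B and PDGF-D, had 9526 and 9919 normalized counts on day 0, 10927 and 11560 on day 7, 5767 and 4768 on day 14, and 9475 and 12246 on day 21. The day 14 libraries were below all others, while those of day 21 spread around those of days 0 and 7. Pdgfrb fell 2.14-fold from day 7 to day 14 (log2 -1.10 ± 0.13, adjusted p = 6.24e-05) and rose 2.05-fold from day 14 to day 21 (log2 1.04 ± 0.13, adjusted p = 0.000299). At day 14 it was also 1.85-fold below day 0 (log2 -0.89 ± 0.13, adjusted p = 5.65e-05). At day 7 the difference from day 0 was 0.21 on the log2 scale with an interval of -0.07 to 0.49, and at day 21 it was 0.15 with an interval of -0.13 to 0.43, neither of them called. Both became calls once a trend with transcript length and GC content was removed, at 0.24 (adjusted p = 0.0400) and 0.36 (adjusted p = 0.00525), and so did day 21 with its first library left out, at 0.33 (adjusted p = 0.0469). Mural cell markers, whose cells carry Pdgfrb, summed to 1349 and 1425 normalized counts on day 0, then 2790 and 2912 on day 7. The sums were 898 and 1163 on day 14 and 1270 and 2843 on day 21, and most of each was Notch3. The 7 tested mural markers had 3 called higher and 1 lower than day 0 at day 7. At day 14 it was 2 and 2, and at day 21 it was 4 and 3. These are 57.1%, 57.1% and 100% called, beside 55.4%, 70.7% and 59.4% of all tested genes. The defining mural gene Rgs5 averaged 11.6, 9.89, 21.0 and 32.4 on days 0, 7, 14 and 21, and Cspg4 42.8, 32.5, 9.03 and 11.8. The part of mural cells in the Pdgfrb values was not tested.

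Transcript length moved with the day 14 values, and less strongly with those of day 21. Across 13421 genes with a known length, the slope of the log2 difference on log2 exon length was -0.39 for day 14 against day 7. It was 0.25 for day 21 against day 14 and -0.14 for day 21 against day 7. Against day 0 the slope was -0.02 at day 7, -0.41 at day 14 and -0.15 at day 21. Pdgfra, with 8767 exonic bases, is longer than 95.2% of these genes and Pdgfrb, with 5478, longer than 80.1%, against a median of 3280. With the trend of length and GC content removed from each library, the day 14 fall from day 7 was -0.49 for Pdgfra (adjusted p = 0.00153) and -0.63 for Pdgfrb (adjusted p = 0.000502), and the later rise was 0.73 and 0.75 (adjusted p = 0.000441 and 0.000449). Both receptors were still called in these comparisons, at smaller size, while Pdgfra at day 14 became 1.65-fold higher than day 0 (log2 0.72, adjusted p = 2.29e-05) and Pdgfrb only 1.31-fold lower (log2 -0.39, adjusted p = 0.00291). Leaving out the second library of day 14 also made Pdgfra a call against day 0 (log2 0.34, adjusted p = 0.00889), and leaving out the first gave -0.15.

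**Figure D2:**
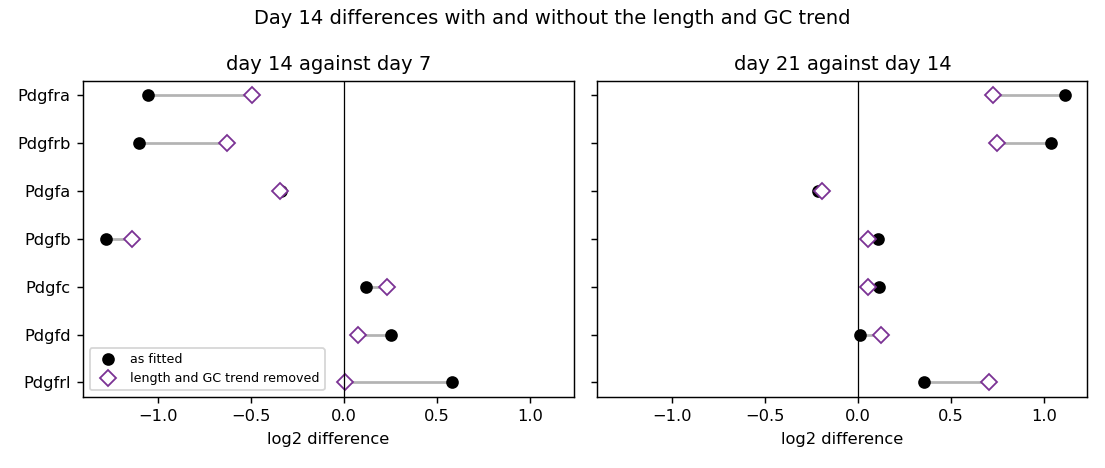
Log2 differences (x axis) of the 7 genes (y axis) for day 14 against day 7 and day 21 against day 14, as fitted (filled circles) and with the length and GC trend removed (open diamonds). The Pdgfra and Pdgfrb symbols move toward 0 on both sides, and Pdgfrl at day 14 against day 7 moves from 0.58 to 0.01.

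The balance of the receptors was also compared within each library. The ratio of Pdgfra to Pdgfrb, each per kb of exon, was 0.270 and 0.279 on day 0, 0.535 and 0.522 on day 7, 0.587 and 0.506 on day 14, and 0.640 and 0.516 on day 21. Every library in the medium was above both day 0 libraries, and the later times overlapped each other. The log2 ratio was 0.94, 0.99 and 1.06 above day 0 at days 7, 14 and 21, and this ratio does not depend on the size factors. An exact permutation test over the 4 times, added after the values were seen, gave p = 0.124 (0.124 adjusted over the 4 ratios tested). The smallest exact permutation p possible was 0.00952. The spread within times was as small in 13 of the 105 ways of pairing the 8 libraries. Because the later times overlapped, re-pairing their libraries changes that spread little, so the test cannot decide whether day 0 differed from them. For Pdgfc to Pdgfa the exact permutation p was 0.00952, the smallest possible, and 0.0381 adjusted. The ratios were 0.254 and 0.337 on day 0, 0.477 and 0.406 on day 7, 0.631 and 0.580 on day 14, and 0.768 and 0.751 on day 21. Because the test was added after the values were seen and the 2 libraries of a time may be technical, it describes these libraries only. Per kb of exon the beta receptor remained the more abundant of the pair at every time, at 1775 ± 50.7 against 488 ± 24.7 on day 0 and 1983 ± 358 against 1130 ± 32.5 on day 21 (normalized counts per kb, SD, n = 2).

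**Figure D3:**
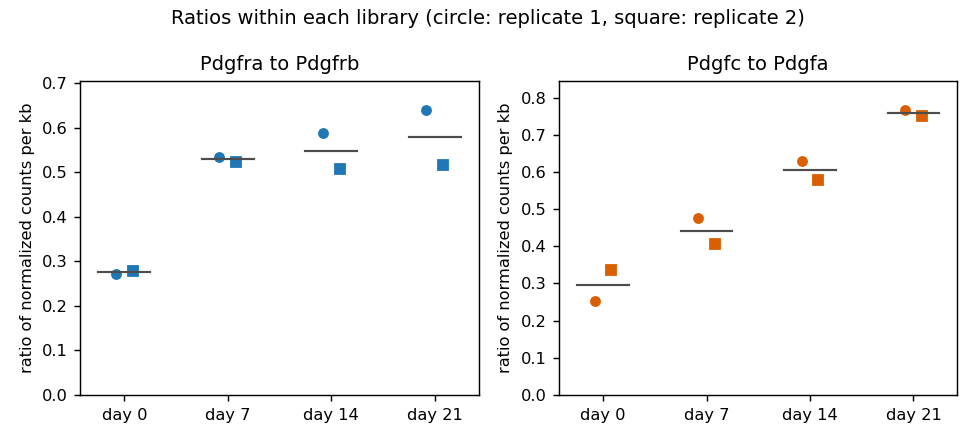
Ratios within each library (y axis, from 0) of normalized counts per kb of exon on each day (x axis), with 1 point per library and a line at the mean. Pdgfra to Pdgfrb steps from 0.27 or 0.28 on day 0 to above 0.5 afterwards, and Pdgfc to Pdgfa goes from 0.25 and 0.34 on day 0 to 0.77 and 0.75 on day 21.

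Pdgfrl encodes a secreted protein that resembles the receptors' outer part and lacks a kinase. It had 454 and 448 normalized counts on day 0, 355 and 405 on day 7, 593 and 542 on day 14, and 720 and 731 on day 21. The day 21 libraries were the highest and those of day 7 the lowest, with no overlap between any pair of times. Day 7 against day 0 was nevertheless not called (log2 -0.25, interval -0.49 to -0.01, adjusted p = 0.0692). It was not called with the length and GC trend removed either (-0.26, adjusted p = 0.0722). Pdgfrl was 1.61-fold above day 0 at day 21 (log2 0.68 ± 0.11, adjusted p = 0.000163) and 1.91-fold above day 7 (log2 0.93 ± 0.11, adjusted p = 0.000286). With the length and GC trend removed both were still called at smaller size, at 0.45 (adjusted p = 0.00600) and 0.71 (adjusted p = 0.00369). At day 14 Pdgfrl was called higher than day 7 (log2 0.58 ± 0.11, adjusted p = 0.000968) and than day 0 (log2 0.33 ± 0.11, adjusted p = 0.0165). These day 14 calls did not hold with the length and GC trend removed: the first went to 0.01 (adjusted p = 0.972) and the second to -0.26 (adjusted p = 0.0692), for a transcript of 1548 exonic bases longer than only 14.6% of genes. Day 14 against day 0 was also lost without either day 0 library or the first of day 14 (adjusted p = 0.0654, 0.0777 and 0.0675). The step from day 14 to day 21 was 0.35 ± 0.11 (adjusted p = 0.0254), and 0.71 with the trend removed (adjusted p = 0.00219). It was not called with upper quartile scaling (adjusted p = 0.0568), with only these times fitted (adjusted p = 0.0927), or when the second day 14 library or either day 21 library was left out (adjusted p = 0.113, 0.0557 and 0.0944).

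Among the ligands, Pdgfc rose and Pdgfb and Pdgfa fell. Pdgfc, whose product is secreted latent and needs its CUB domain cut off, had 176 and 184 normalized counts on day 0, 281 and 273 on day 7, 323 and 280 on day 14, and 342 and 312 on day 21. No library in the medium overlapped day 0, and the 3 later times were close to each other. Pdgfc was higher than day 0 by 1.54-fold at day 7 (log2 0.62 ± 0.13, adjusted p = 0.00124), 1.67-fold at day 14 (log2 0.74 ± 0.13, adjusted p = 0.000207) and 1.81-fold at day 21 (log2 0.86 ± 0.13, adjusted p = 8.96e-05). It was not called between any 2 of the later times, where differences lay between 0.12 and 0.24. These 3 calls held without each library in turn, with adjusted p from 2.26e-05 to 0.0173.

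Pdgfb, the ligand of both receptors, was the scarcest member, with 62 reads over both libraries of day 0, 41 at day 7, 14 at day 14 and 15 at day 21. Its normalized counts were 33.4 and 26.1 on day 0, 17.3 and 19.6 on day 7, 4.56 and 10.5 on day 14, and 8.54 and 6.81 on day 21. Day 0 was highest and day 7 lay between it and the later times, which overlapped. Pdgfb was 3.82-fold lower than day 0 at day 14 (log2 -1.93 ± 0.41, adjusted p = 0.00100) and 3.54-fold lower at day 21 (log2 -1.82 ± 0.41, adjusted p = 0.00202), on a scale that understates changes at such low counts. The day 7 value was not called (log2 -0.65, interval -1.54 to 0.23). Day 14 against day 7 was called at -1.28 ± 0.41 (adjusted p = 0.0197), but not when leaving out either day 7 library (adjusted p = 0.0654 and 0.103), nor the first of day 14 (-0.75, adjusted p = 0.145), nor with DESeq2 (adjusted p = 0.0947).

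Endothelial cells are known for making PDGF-B, and their markers did not move as 1 group. Cdh5, the adhesion molecule of endothelial junctions, averaged 180 ± 4.45 normalized counts on day 0, 73.8 ± 14.2 on day 7, 12.5 ± 2.87 on day 14 and 5.49 ± 3.24 on day 21 (SD, n = 2). Pecam1 went from 91.4 to 58.1, 32.7 and 23.1 over the same days. Cdh5 was called lower than day 0 at every time, though leaving out the first library of day 7 ended the call there (log2 -1.09, adjusted p = 0.0671), and Pecam1 was called at days 14 and 21. Flt1, a VEGF receptor on the same list, went the other way, from 33.7 on day 0 to 296, 208 and 263, and was called higher at every time. Of 10 tested endothelial markers, 1 was higher and 1 lower at day 7, and 1 was higher and 6 lower at days 14 and 21. That is 20%, 70% and 70% called, beside 55.4%, 70.7% and 59.4% of all genes. The list of 11 summed to 9611 to 17896 over all libraries and was lowest on day 14, and most of it was Eng, which fibroblasts also make. The platelet gene Gp6 had 0 reads in every library and Ppbp at most 3, and the platelet list summed to 125 to 203. Macrophage markers moved the opposite way, Lyz2 from 681 on day 0 to 24332 on day 14. The part of these cells in the Pdgfb values was not tested.

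**Figure D4:**
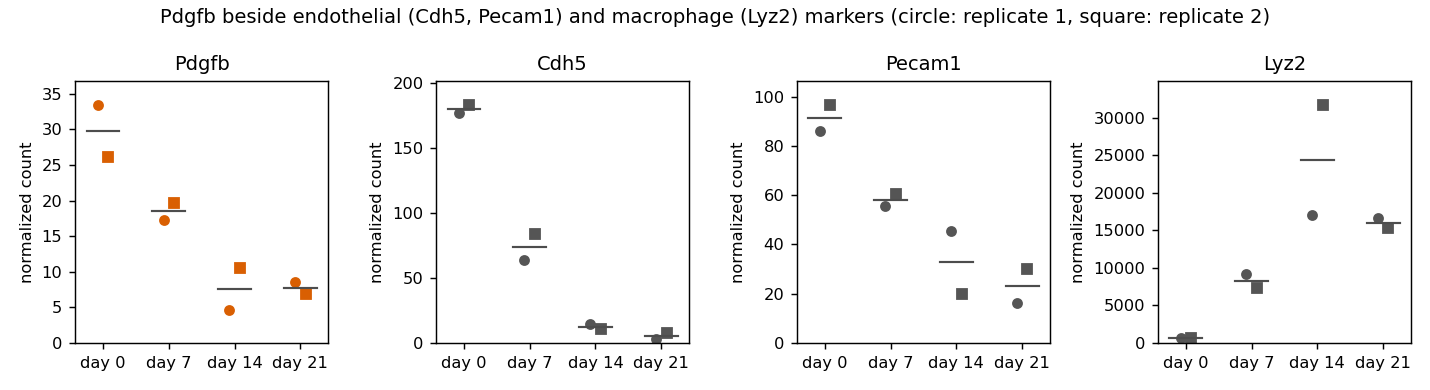
Normalized counts (y axes, from 0, scaled separately) of Pdgfb, the endothelial markers Cdh5 and Pecam1 and the macrophage marker Lyz2 on each day (x axis), with 1 point per library and a line at the mean. Pdgfb, Cdh5 and Pecam1 are highest on day 0, and Lyz2 is lowest there.

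Pdgfa, the ligand specific to the alpha receptor, had 579 and 458 normalized counts on day 0, 493 and 562 on day 7, 428 and 404 on day 14, and 372 and 347 on day 21. Days 0 and 7 overlapped, and the libraries of days 14 and 21 lay below both. Pdgfa was 1.43-fold lower at day 21 than at day 0 (log2 -0.52 ± 0.13, adjusted p = 0.00450) and 1.46-fold lower than at day 7 (log2 -0.55 ± 0.13, adjusted p = 0.0242). Leaving out the first library of day 0 ended the first call (log2 -0.35, adjusted p = 0.0786), and leaving out any 1 of the 4 libraries compared ended the second (adjusted p from 0.0746 to 0.242). At day 14 the difference from day 7 was at the limit (log2 -0.34 ± 0.13, adjusted p = 0.0467). It was not called with DESeq2 (adjusted p = 0.0806), with no filter (adjusted p = 0.0641) or with upper quartile scaling (adjusted p = 0.0807). Nor was it called when either day 7 library, the second of day 14 or the first of day 21 was left out (adjusted p from 0.0501 to 0.290). The day 14 difference from day 0 was just outside it (log2 -0.31 ± 0.13, adjusted p = 0.0524), and was called at -0.35 with the length and GC trend removed (adjusted p = 0.0244).

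Pdgfd, the latent ligand of the beta receptor, was not called in any of the 6 comparisons as fitted. It had 451 and 431 normalized counts on day 0, 376 and 296 on day 7, 479 and 331 on day 14, and 392 and 411 on day 21. Day 7 lay below day 0 without overlap, and the day 14 libraries stood farther apart than any other pair of this gene. At day 7 the difference from day 0 was -0.40 with an interval of -0.77 to -0.04 (adjusted p = 0.0579). With the length and GC trend removed Pdgfd was called against day 0 at day 7 (-0.49, adjusted p = 0.0131) and day 14 (-0.42, adjusted p = 0.0250). Leaving out single libraries gave -0.57 to -0.23 at day 7 against day 0 and -0.42 to 0.12 at day 14 against day 0. For day 14 against day 7 it gave -0.01 to 0.52, so the day 14 values of this gene depend on single libraries.

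Per kb of exon the ligands kept one order from day 0 to day 7: Pdgfa was highest, then Pdgfd, Pdgfc and Pdgfb. On day 0 they stood at 176 ± 29.1, 140 ± 4.48, 51.2 ± 1.69 and 10.1 ± 1.75 normalized counts per kb (SD, n = 2). By day 21 the spread among the first 3 had narrowed to 122 ± 5.88 for Pdgfa, 127 ± 4.36 for Pdgfd and 92.9 ± 5.94 for Pdgfc, and Pdgfb stood at 2.61 ± 0.417. Pdgfa and Pdgfd overlapped on days 14 and 21. The share of Pdgfc in the summed ligand signal per kb was 12.5 and 14.8% on day 0 and 27.7 and 26.1% on day 21, while that of Pdgfa was 49.0 and 44.0% and then 36.0 and 34.8%. Among the receptors and Pdgfrl the order was Pdgfrb, Pdgfra, Pdgfrl at every time. Exon lengths come from GENCODE M21, whose isoforms need not be those in these cells.

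Counted over the 7 genes, 2 were called higher and 0 lower at day 7 against day 0, where 55.4% of all tested genes were called, 27.5% higher and 27.9% lower. At day 14 against day 0 there were 2 higher and 2 lower, against a background of 70.7%, made up of 35.2% higher and 35.6% lower. At day 21 against day 0 there were 3 higher and 2 lower, beside 59.4% of all genes, 29.8% higher and 29.5% lower. Day 14 against day 7 gave 1 higher and 4 lower, beside 52%, 25% higher and 27% lower. Day 21 against day 14 gave 3 higher and 0 lower, beside 34.5%, 20.2% higher and 14.3% lower. Day 21 against day 7 gave 1 higher and 1 lower, beside 8.74%, 5.46% higher and 3.28% lower. The median log2 difference of the 7 genes lay between -0.34 and 0.15 in the 6 comparisons, against -0.01 to 0.02 over all genes, and with 7 genes nothing about the family as a whole is read from these counts. Comparisons that have a time in common share its libraries.

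**Figure D5:**
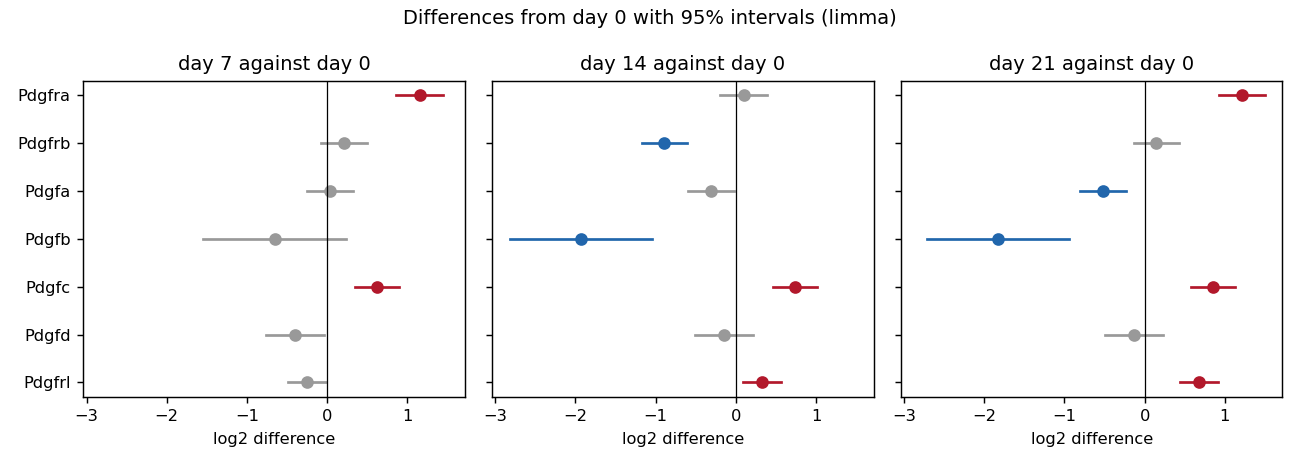
Log2 differences from day 0 (x axis) of the 7 genes (y axis) at days 7, 14 and 21, with 95% intervals of the limma fit. Red marks genes called higher, blue called lower and grey not called: 2 genes are red at day 7, 2 red and 2 blue at day 14, and 3 red and 2 blue at day 21.

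Genes that act around the receptors are given next, with the share of each list called beside 55.4%, 70.7% and 59.4% of all tested genes at days 7, 14 and 21. Of 7 tested genes that process the ligands, 3 were higher than day 0 and 2 lower at day 7. At day 14 it was 1 and 3 of them, and at day 21 it was 2 and 2, so that 71.4%, 57.1% and 57.1% were called. Furin, a protease that cuts the PDGF-A and PDGF-B precursors, averaged 4878 normalized counts on day 0, 4078 on day 7, 2068 on day 14 and 3123 on day 21, and was called lower at every time (log2 -0.26, -1.24 and -0.65). The day 7 call ended when any 1 of the 4 libraries compared was left out (adjusted p from 0.0842 to 0.248). The related convertase Pcsk5 was higher at every time, by 1.22, 0.60 and 1.45 on the log2 scale. Plat, the tissue plasminogen activator that can release active PDGF-C, rose at day 7 (log2 0.42 ± 0.11, adjusted p = 0.00511) and was lower at day 14 (log2 -0.38 ± 0.11, adjusted p = 0.00666). The first call ended without the first library of day 0 (adjusted p = 0.0606) and the second without the other (adjusted p = 0.0706). Plau, which acts on PDGF-D, was not called, at 92.2 on day 0 and between 66.6 and 81.2 later.

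Co-receptors and binding proteins had 4 higher and 4 lower of 11 at day 7, then 2 and 8 at day 14 and finally 4 and 5 at day 21, which is 72.7%, 90.9% and 81.8% called. Nrp1, a co-receptor for PDGF and VEGF, rose 4.01-fold by day 7 from 1249 to 5003 normalized counts (log2 2.00 ± 0.15, adjusted p = 3.13e-07) and stood at 2643 on day 14 and 4634 on day 21. A2m, a plasma protease inhibitor that binds PDGF, rose 14.7-fold by day 7 (log2 3.88 ± 0.15, adjusted p = 1.06e-09). Lrp1, a large endocytic receptor that associates with Pdgfrb, averaged 24551 on day 0, 24481 on day 7, 8222 on day 14 and 25834 on day 21, and only day 14 was called against day 0 (log2 -1.58 ± 0.17, adjusted p = 3.78e-06). Sparc, a matrix protein that binds PDGF-B, was called lower at each time (log2 -0.48, -0.79 and -0.83), but at day 7 not when the first day 0 library or either day 7 library was left out (adjusted p = 0.0799, 0.0930 and 0.0794). The integrin chain Itgav was also lower throughout (log2 -1.10, -2.70 and -1.65). The length trend, largest at day 14 and smaller at day 21, was not removed from the differences of this list.

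Inside the cell, adaptors and enzymes that dock on the receptors had 7 higher and 10 lower of 31 at day 7, then 3 and 21 at day 14 and finally 6 and 12 at day 21. Called shares of 54.8%, 77.4% and 58.1% were near those of all genes. Grb2, the adaptor that links receptors to Ras, was not called at any time (1442 on day 0, 1289 to 1419 later), and the phosphatase Ptpn11 was called at day 14 alone (log2 -0.25 ± 0.09, adjusted p = 0.0252). That call ended when either library of day 0 or day 7, or the second of day 14, was left out (adjusted p from 0.0549 to 0.122). Pik3cb, a PI3-kinase catalytic subunit, was lower at each time (log2 -1.24, -1.88 and -1.88). Of 18 cascade kinases and Ras proteins 3 were higher and 5 lower at day 7, then 3 and 13 at day 14 and finally 3 and 9 at day 21, which is 44.4%, 88.9% and 66.7% called. Map2k2, a kinase that activates ERK, was among those lower (log2 -0.90, -1.04 and -0.92). The median log2 difference of the docking list was -0.05 at day 7, -0.51 at day 14 and -0.17 at day 21. For all genes it was -0.01, 0.00 and 0.00. The length trend given above, at day 14 and less at day 21, applies to these values too.

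Genes that switch receptors off had 5 higher and 2 lower of 13 at day 7, then 5 and 6 at day 14 and finally 4 and 3 at day 21. The called shares were 53.8%, 84.6% and 53.8%. Errfi1, a feedback inhibitor of receptor tyrosine kinases best known on the EGF receptor, rose 5.00-fold by day 7 (log2 2.32 ± 0.10, adjusted p = 2.86e-09) and was 7.62-fold above day 0 at day 21. Cblb, a ubiquitin ligase, was higher at each time (log2 1.05, 0.42 and 1.07), while its relative Cbl was called lower at day 14 (log2 -2.56). Its day 14 libraries were far apart, at 51.9 and 7.01 normalized counts against 129 and 112 on day 0, and the difference was -1.20 without the second and -3.92 without the first. Leaving out either also made day 21 a call (log2 -0.98, adjusted p = 0.000293 and 0.000608). The list of ligands and receptors related to PDGF and VEGF also includes Csf1r, Il34 and Flt3l. Of its 13 tested genes 8 were higher and 2 lower at day 7, then 7 and 4 at day 14 and finally 7 and 2 at day 21. These are 76.9%, 84.6% and 69.2% called. Vegfc, a lymphatic growth factor, rose 4.53-fold by day 7 (log2 2.18 ± 0.11, adjusted p = 1.23e-08), and Figf, which encodes VEGF-D, rose 2.73-fold (log2 1.45 ± 0.09, adjusted p = 8.79e-08). Il34, a ligand of the Csf1 receptor, was higher at every time (log2 1.21, 1.48 and 1.59). Flt4 on the same list went the other way and was called lower at every time (log2 -0.53, -1.98 and -1.55). Its day 7 call ended when any single library of days 0 and 7 was left out.

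The genes whose pattern over the 8 libraries was most like each receptor's were taken from 10709 genes with a mean of at least 50 normalized counts (10710 for Pdgfb). For Pdgfra these were Man2a2, Zhx3 and Pros1, with Pearson r of 0.994, 0.993 and 0.992 on log2 values. For Pdgfrb they were Clstn1, Vps13b and Zzef1, each at 0.989. Pdgfc was most like St3gal4, Rnf13 and Creg1 (0.996, 0.994 and 0.993), Pdgfa like Cnot11 (0.963), Pdgfb like Nup107 (0.974), Pdgfd like Sytl4 (0.962) and Pdgfrl like Myc (0.964). Between members, r was 0.66 for the receptors, 0.62 for Pdgfra with Pdgfc, -0.87 for Pdgfb with Pdgfc and -0.85 for Pdgfa with Pdgfrl. The points are 4 times with 2 libraries each and share their size factors, so these values describe the time courses only.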

How the data were processed

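RNA from 8 libraries was sequenced. The authors deposited normalized counts per gene, a signal in which each library's reads are divided by its size factor. Per the submitters' processing notes, TopHat2 2.0.11, HTSeq 0.6.1, DESeq and the build mm9 were used, with no roles stated. The annotation and strand setting were not named, so Pdgfra, Pdgfa, Pdgfb, Pdgfc and Pdgfd, which overlap antisense genes in GENCODE M21, are uncertain to that degree.

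Whole reads were recovered from the value of 1 read in each library, and 100% of values were whole within 0.01 reads. Genes reaching 10 normalized counts in 2 or more of the 8 libraries (13527 genes) were fitted as log2(value + 1) in 1 model of all libraries with limma-trend (limma 3.58.1), which had 4 residual and 8.16 prior degrees of freedom, and p-values were adjusted by Benjamini-Hochberg. The alternatives were edgeR 4.0.16 and DESeq2 1.42.0 on the recovered reads, other pseudocounts, filters and scalings, the compared times alone, a replicate block, removal of a trend of exon length and GC content (known for 98.4% of genes), and leaving out each library. The code was tested on simulated data in R 4.3.3, and figures were drawn in Python 3.11.15 (matplotlib 3.10.9).

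Members, gene lists and tests were chosen with earlier results of these data known. The Egr and serum response element motifs were added after the promoter sequences had been read. Named genes of the signalling lists are up to 3 called genes per comparison with day 0 that have the largest differences, plus Furin, Plat, Plau, Nrp1, Lrp1, Sparc, Ptpn11, Cbl and Grb2. Defining markers could always be named, and Notch3, Eng, Fabp4, Myh6, Gp6 and Ppbp were added after their values were seen. Likeness takes the 3 highest correlations per gene, without predicted gene models.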

Additional observations from a re-analysis of the deposited data

How the results depend on the processing

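At day 7 against day 0 the 2 PDGF genes called became 5 with only the 2 times compared, 4 with the length and GC trend removed, and 2 to 4 without single libraries. At day 14 against day 7 the 5 called became 3 with DESeq2 and 3 to 5 without single libraries, and at day 21 against day 7 the 2 called became 1 to 3. With the trend removed, 6 were called at day 14 against day 0 in place of 4, and 6 at day 21 against day 0 in place of 5. The ranges without single libraries were 3 to 5 at day 14 against day 0, 4 to 6 at day 21 against day 0 and 2 to 3 at day 21 against day 14. With the trend removed, the sign turned for Pdgfrb at day 21 against day 7 (log2 0.12), Pdgfa at day 7 against day 0 (-0.0042) and Pdgfrl at day 14 against day 0 (-0.26), and the cause was not tested. Pdgfd at day 21 against day 14 turned to -0.0066 with TMM, -0.058 with upper quartile scaling, -0.038 with edgeR and -0.025 with DESeq2. Without single libraries these log2 differences crossed 0: Pdgfra at day 14 against day 0 (-0.15 to 0.34), Pdgfrb at day 21 against day 0 (-0.037 to 0.33) and day 7 (-0.25 to 0.12), Pdgfa at day 7 against day 0 (-0.14 to 0.20), Pdgfb at day 21 against day 14 (-0.42 to 0.64), and Pdgfd at day 14 against day 0 (-0.42 to 0.12), day 14 against day 7 (-0.013 to 0.52) and day 21 against day 14 (-0.25 to 0.28). Over all genes, 1182 calls at day 21 against day 7 became 739 with no filter, and 4664 at day 21 against day 14 became 2635 with only those times fitted.

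The replicate block left 2 of the 7 genes called at day 21 against day 7, gave Pdgfd at day 7 against day 0 a call (log2 -0.40, adjusted p = 0.0412, limma) and ended that of Pdgfa at day 14 against day 7 (adjusted p = 0.0529). The numbers are shared labels only: the 6 correlations of same-numbered deviations ran from -0.036 to 0.074. Of the single differences, 431 kept direction and side of the threshold under the alternatives other than leaving out a library, 10 gained a call, 8 lost one and 7 turned. Leaving out single libraries turned a difference in direction 11 times, in the comparisons listed above as crossing 0. Pdgfb, with 14 reads over both day 14 libraries, is the gene whose precision depth limits most.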
